A study of Rattus norvegicus with 6 samples.

Results

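The 59 genes described here encode secreted growth factors and the receptors they act through, most of them receptor tyrosine kinases: the FGF, PDGF, VEGF, EGF, HGF, KIT, TAM and angiopoietin families and the receptors Ghr, Insr, Ddr1, Ddr2 and Ret. They were taken by gene symbol, by a rule that uses no array value, although earlier results of these data were known when the set was drawn up. For 57 of them the array held at least 1 probe set annotated to that symbol alone, 99 probe sets in all, out of 14217 genes measured in this way. Pdgfb and Mst1r had no such probe set and are not analysed here. Of the 57 genes, 30 encode ligands and 25 receptors. The remaining 2, Fgf13 and Pdgfrl, are related by sequence but are not known to signal as a ligand or a receptor kinase of their family.

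The cells were IEC-6, a non-tumorigenic rat line with an undifferentiated small intestinal crypt phenotype, grown with 5% fetal bovine serum. ShControl cells carried a scrambled short hairpin RNA and ShSuz12 cells a hairpin against Suz12, a core subunit of the Polycomb Repressive Complex 2 (PRC2), which methylates lysine 27 of histone H3. Both lines were made by lentiviral infection and puromycin selection of cell populations, with an infection efficiency put at 25%, and RNA of each was taken in 3 independent experiments, so that p-values measure the spread between experiments. No source used here gives the density of the cultures at RNA isolation, so density and Suz12 depletion cannot be told apart where cultures of the groups differed in it. A single hairpin sequence was used for the depletion, so its effects through Suz12 and through other transcripts cannot be told apart, and each group is 1 selected population. This is the 21-base sequence that the hairpin targets, shown because every difference below rests on it.
Suz12 hairpin target: gctgacaatcaaatgaatcat

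Growth factors of these families are secreted or shed from the cell surface and bind receptors whose intracellular kinase domains then phosphorylate each other and recruit adaptor proteins. From there the signal runs to Ras, MAP kinases, phosphoinositide 3-kinase and phospholipase C. In the intestine, EGF receptor ligands and the kinase Met maintain proliferation in the crypt, while FGF, PDGF and HGF ligands pass between the epithelium and the mesenchyme beneath it, and VEGF and angiopoietin ligands act on vessels. A cell can thus change its signaling through the ligands it makes, the receptors it carries or both, which is the comparison made here for Suz12 depletion.

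Levels are log2 values from robust multi-array average (RMA), so a difference of 1 is 2-fold, and levels of different genes were not set against each other because probes differ in brightness. A probe set was called when limma gave it an adjusted p under 0.05, over all 31042 probe sets, together with at least 2-fold. "Rose" and "fell" are used below for any adjusted p under 0.05, and the fold is given beside them. Each gene is counted by its brightest probe set, by the mean over all arrays of both groups. This can favour a probe set that is high in ShSuz12 cells. For Ghr and Flt1 another probe set was brighter in ShControl cells. Suz12 itself had log2 levels of 8.45, 8.55 and 8.77 in ShControl and 5.82, 5.77 and 5.91 in ShSuz12 cells, and it fell by 2.76 (standard error 0.09, 6.77-fold), so the 3 arrays of each group match their labels. The arrays had median levels between 6.15 and 6.18 (ShControl) and between 6.26 and 6.27 (ShSuz12), and their number limits the precision. With 3 arrays against 3, an exact permutation test cannot go below p = 0.1.

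Receptors that changed after Suz12 depletion were higher, and ligands changed both ways. Of 25 receptors, 5 were at least 2-fold higher (Fgfr1, Fgfr2, Pdgfrb, Egfr and Ghr) and 0 were called lower by limma. At an unadjusted p under 0.05, without a fold limit, limma had 14 receptors higher and 0 lower at their brightest probe sets. The methods' t-test had 11 and 0. A dimmer Fgfr3 probe set was lower (unadjusted p = 0.0191 by limma). No share of all genes at an unadjusted p is given beside these counts or those below, so they are not compared with a background. Of 30 ligands, 1 was at least 2-fold higher (Angpt2) and 2 were lower (Pgf and Vegfc). Together with Pdgfrl, higher, and Fgf13, lower, this made 7 higher and 3 lower of 57 genes. Over all 14217 genes, 3.82% were called higher and 0.422% lower by the same rule. Both shares are larger among these genes, with 3 genes behind the second of them.

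Without the fold limit, 10 of 25 receptors and 7 of 30 ligands rose at an adjusted p under 0.05, against 17.1% of all genes, and 0 receptors and 6 ligands fell, against 23.3% of all genes. Of the receptors that rose, Ghr, Kdr, Flt1, Kit and Mertk were dim, at percentile 33.4 or lower in ShControl cells. With array medians subtracted, which moved the median of all probe sets by 0.10, 9 receptors and 4 ligands rose and 0 and 12 fell. At the brightest probe set, the 3 ShSuz12 levels of 13 receptors all lay above the 3 ShControl levels. In 0 receptors they all lay below. Among ligands those numbers were 8 and 9, while 22.2% of all genes lay all above, 33.4% all below and 55.7% in either position. The median log2 fold change was 0.19 for receptors, -0.06 for ligands and -0.05 for all genes. With array medians subtracted, the receptor median was 0.09 and the ligand median -0.16, and the ligand median was 0.01 when only probe sets above the 60th percentile of the array were kept. No test was made between ligands and receptors.

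**Figure D1:**
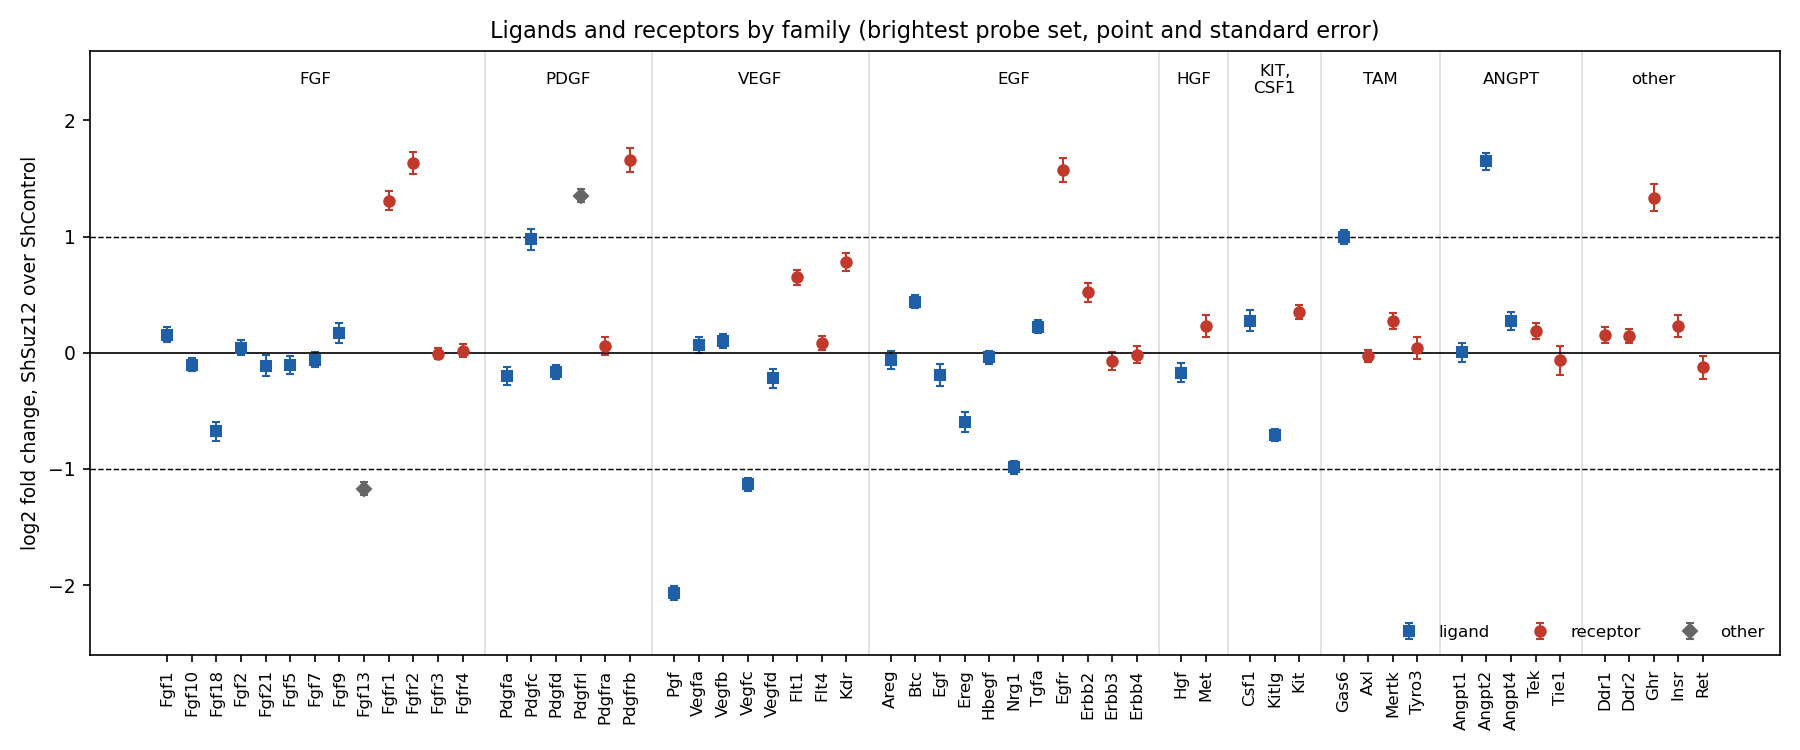
Fold changes on the log2 scale for 57 genes, ShSuz12 over ShControl, at the brightest probe set and grouped by family, with ligands as blue squares, receptors as red circles and Fgf13 and Pdgfrl as grey diamonds; bars are standard errors and dashed lines mark 2-fold. Receptor points reach 1.66 (Pdgfrb) and none lies below -0.13, while ligand points run from -2.07 (Pgf) to 1.65 (Angpt2).

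Because PRC2 is known to act mostly at promoters rich in CG pairs, the promoters of 5 genes whose changes are described below are shown from the RefSeq table (GRCr8 build), from 250 bases before to 50 after the gene's start, 5′ to 3′ on the gene's strand. Capitals mark each CG, which reads the same on both strands.
Egfr, chr14:95378376-95378675, plus strand: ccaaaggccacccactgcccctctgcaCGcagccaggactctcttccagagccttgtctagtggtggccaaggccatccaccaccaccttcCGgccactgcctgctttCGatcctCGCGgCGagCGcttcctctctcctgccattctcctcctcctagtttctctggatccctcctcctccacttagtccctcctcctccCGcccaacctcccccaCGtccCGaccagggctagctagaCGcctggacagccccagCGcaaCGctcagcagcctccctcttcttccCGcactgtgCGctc
Fgfr2, chr1:194280865-194281164, minus strand: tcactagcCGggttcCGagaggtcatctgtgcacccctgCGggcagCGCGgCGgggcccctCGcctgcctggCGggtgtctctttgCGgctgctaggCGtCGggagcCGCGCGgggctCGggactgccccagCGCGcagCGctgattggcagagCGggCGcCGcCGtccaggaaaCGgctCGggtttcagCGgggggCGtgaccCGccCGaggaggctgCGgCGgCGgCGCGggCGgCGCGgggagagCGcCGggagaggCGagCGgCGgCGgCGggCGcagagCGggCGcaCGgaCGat
Gas6, chr16:82747426-82747725, plus strand: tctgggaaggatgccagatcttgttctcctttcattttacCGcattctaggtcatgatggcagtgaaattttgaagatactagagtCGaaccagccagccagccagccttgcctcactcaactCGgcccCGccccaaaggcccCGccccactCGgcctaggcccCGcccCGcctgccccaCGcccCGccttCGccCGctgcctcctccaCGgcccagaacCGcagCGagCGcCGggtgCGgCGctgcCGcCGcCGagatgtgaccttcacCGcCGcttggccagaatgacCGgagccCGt
Pgf, chr6:110557698-110557997, minus strand: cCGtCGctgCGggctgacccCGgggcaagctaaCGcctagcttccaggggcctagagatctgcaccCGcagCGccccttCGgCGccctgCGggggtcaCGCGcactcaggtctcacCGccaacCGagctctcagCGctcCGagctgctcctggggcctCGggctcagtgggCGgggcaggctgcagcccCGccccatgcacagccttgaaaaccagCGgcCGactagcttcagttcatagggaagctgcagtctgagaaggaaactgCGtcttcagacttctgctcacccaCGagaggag
Vegfc, chr16:44560838-44561137, minus strand: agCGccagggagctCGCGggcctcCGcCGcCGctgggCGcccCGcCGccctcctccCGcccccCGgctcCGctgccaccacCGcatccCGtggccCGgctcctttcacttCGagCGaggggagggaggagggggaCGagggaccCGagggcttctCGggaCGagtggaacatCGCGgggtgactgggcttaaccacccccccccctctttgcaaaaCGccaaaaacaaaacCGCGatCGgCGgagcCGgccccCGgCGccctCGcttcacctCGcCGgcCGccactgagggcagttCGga
These windows held 15 CG pairs for Egfr, 48 for Fgfr2, 26 for Gas6, 23 for Pgf and 36 for Vegfc. At least 1 CG was present in 94.5% of all 33469 promoters in the table, which had a median of 7, and the median was 19 over 11733 measured genes. Of the 59 genes, 48 had a promoter in the table, with a median of 17.5 CG pairs. Counts of the 3 called higher genes among them (Ghr 0, Egfr 15, Fgfr2 48) and of the 3 called lower (Fgf13 7, Pgf 23, Vegfc 36) overlapped. No methylation was measured on these arrays.

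FGF receptors 1 and 2 were both higher in ShSuz12 cells, and receptors 3 and 4 were not called. Fgfr1 and Fgfr2 bind many FGFs through alternatively spliced extracellular domains, and the epithelial form of Fgfr2 is the receptor for Fgf7 and Fgf10. Fgfr2 had log2 levels of 6.82, 7.11 and 7.09 in ShControl and 8.77, 8.57 and 8.56 in ShSuz12 cells, a rise of 1.63 (standard error 0.09, 3.09-fold, adjusted p = 7.48e-06). Fgfr1 rose by 1.31 (standard error 0.08, adjusted p = 1.33e-05), from 6.56, 6.73 and 6.79 to 7.89, 8.12 and 7.99. For both genes the groups were well apart, with the lowest ShSuz12 array over 1 log2 unit above the highest ShControl array. A dimmer Fgfr1 probe set also rose, by 1.49. The 4 dimmer Fgfr2 probe sets showed less: 0.43 and 0.78, which passed the adjusted p, and 0.03 and 0.20, which did not (adjusted p = 0.855 and 0.0716). Fgfr2 has many splice forms, and which of them each probe set matches was not analysed here. Fgfr3 had a difference of -0.01 at its brightest probe set (adjusted p = 0.935) and Fgfr4 one of 0.02 (adjusted p = 0.840). The dimmer Fgfr3 probe set had -0.21 (adjusted p = 0.0542), from 8.29, 8.25 and 8.09 to 8.08, 7.94 and 7.98. Its ShSuz12 levels thus all lay below its ShControl levels.

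Among the 8 FGF ligands limma gave 0 that rose and 1 that fell (1 and 1 at an unadjusted p under 0.05, and 0 and 1 by the methods' t-test). Fgf18, which acts on several FGF receptors, fell by 0.67, from 7.23, 7.44 and 7.28 to 6.52, 6.65 and 6.76 (adjusted p = 4.45e-04). Fgfr1 and Fgfr2 thus moved in the opposite direction to this ligand, while Fgfr3 and Fgfr4 did not pass. Fgf7 and Fgf10, the mesenchymal ligands of epithelial Fgfr2, had differences of -0.06 and -0.10 and low levels of 4.12 to 4.33 and 4.62 to 4.82. Fgf1, Fgf2, Fgf5 and Fgf21 did not pass either, with 0.16, 0.04, -0.10 and -0.11 at their brightest probe sets. A dimmer Fgf9 probe set rose by 0.43 (adjusted p = 0.00557), while its brightest had 0.17 (adjusted p = 0.186). Fgf13, which stays inside the cell and regulates sodium channels and microtubules, was called lower: 11.08, 11.08 and 11.21 in ShControl and 9.95, 9.99 and 9.92 in ShSuz12 cells, and it fell by 1.17 (standard error 0.06).

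Among the PDGF genes, Pdgfrb and Pdgfrl were called, both higher. Pdgfrb, the beta receptor of pericytes and fibroblasts, had levels of 6.65, 6.49 and 6.31 in ShControl and 8.18, 8.003 and 8.25 in ShSuz12 cells, a rise of 1.66 (standard error 0.10, 3.16-fold, adjusted p = 9.42e-06). Its dimmer probe sets rose by 0.49 each, which is 1.40-fold. All of its probe sets thus rose, and by very different amounts. Pdgfra, the alpha receptor, had 0.06 (adjusted p = 0.616) and levels of 4.73 to 5.02 over the 6 arrays. Pdgfrl, which resembles the extracellular part of these receptors and has no kinase domain, rose from 8.65, 8.71 and 8.66 to 10.10, 10.04 and 9.94 (1.35, standard error 0.06).

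The PDGF ligands were measured for Pdgfa, Pdgfc and Pdgfd. Pdgfc, a ligand of the alpha receptor that is activated by proteolysis, had levels of 7.37, 7.02 and 7.14 in ShControl and 8.21, 8.12 and 8.13 in ShSuz12 cells. It rose by 0.98 (standard error 0.09, adjusted p = 1.01e-04), just under the 2-fold limit at 1.97-fold. Without ShControl replicate 1 it passed that limit (1.08). Pdgfa and Pdgfd had -0.20 and -0.16 (adjusted p = 0.0761 and 0.0758).

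Egfr rose about as much as Fgfr2 and Pdgfrb. This receptor for EGF, TGF-alpha, amphiregulin and related ligands had log2 levels of 6.46, 6.31 and 6.69 in ShControl and 8.19, 8.05 and 7.94 in ShSuz12 cells, a rise of 1.57 (standard error 0.11, 2.97-fold, adjusted p = 1.71e-05). A second probe set of nearly the same brightness gave 1.64 (standard error 0.09), and the dimmest had -0.12 (adjusted p = 0.384) with levels of 3.95 to 4.36. Erbb2, the partner receptor without a ligand of its own, rose by 0.52 (1.43-fold, adjusted p = 0.00177), from 7.11, 7.36 and 7.06 to 7.71, 7.68 and 7.70. Its arrays did not overlap between the groups. Erbb3 and Erbb4, the neuregulin receptors, had -0.07 and -0.02 (adjusted p = 0.522 and 0.875).

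Ligands of the EGF family split 2 against 2 at an adjusted p under 0.05, and 0 of 7 reached 2-fold by limma with or without adjustment. Nrg1, the neuregulin that binds Erbb3 and Erbb4, was the closest to it. At its brightest probe set the levels were 8.65, 8.69 and 8.58 in ShControl and 7.64, 7.71 and 7.61 in ShSuz12 cells, and it fell by 0.99 (standard error 0.06, 1.98-fold, adjusted p = 7.29e-06). Nrg1 has 8 probe sets, the most of any gene here, and 5 of them fell, by 0.29 to 0.99, while the other 3 had -0.03 to -0.16. The 3 brightest fell by 0.91 to 0.99, so the fall of Nrg1 held across its brighter probe sets. It passed 2-fold without ShControl replicate 3 and without ShSuz12 replicate 2 (-1.01 in each) and with array medians subtracted (-1.09), while the mean of all its probe sets fell by 0.48. Epiregulin (Ereg) fell by 0.59 (adjusted p = 0.00120), from 5.94, 5.63 and 5.86 to 5.24, 5.27 and 5.14. Betacellulin (Btc) rose by 0.44 (adjusted p = 6.91e-04), from 6.51, 6.40 and 6.38 to 6.90, 6.83 and 6.88, and Tgfa by 0.23 (adjusted p = 0.0196, but 0.121 with array medians subtracted). The dimmer Tgfa probe set did not pass (0.10, adjusted p = 0.366). Egf, Areg and Hbegf did not pass (-0.19, -0.06 and -0.04).

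The VEGF family held the largest fall of all 57 genes, in a ligand. Pgf, placental growth factor, which binds the receptor Flt1, had levels of 10.84, 10.84 and 10.88 in ShControl and 8.75, 8.87 and 8.74 in ShSuz12 cells, and it fell by 2.07 (standard error 0.06, 4.19-fold, adjusted p = 1.31e-07). Its other probe set fell by 2.25 (standard error 0.09), from 10.75, 10.37 and 10.55 to 8.32, 8.24 and 8.35. Vegfc, the lymphatic growth factor that binds Flt4, fell by 1.13 (standard error 0.06, 2.19-fold, adjusted p = 3.44e-06), from 10.39, 10.46 and 10.35 to 9.26, 9.23 and 9.33. For each of these genes the replicates of a group lay close together and the groups far apart. Vegfa, the main angiogenic factor, did not pass at either probe set (0.07 and -0.09, adjusted p = 0.506 and 0.576), nor did Vegfb (0.10, adjusted p = 0.222) or Vegfd (-0.22, adjusted p = 0.0685).

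Of the receptors of these ligands, Kdr and Flt1 rose, at low signal. Kdr (VEGFR2), the main receptor of Vegfa, rose by 0.78 (1.72-fold, adjusted p = 1.62e-04), from 3.93, 4.17 and 3.92 to 4.83, 4.73 and 4.79, and Flt1 (VEGFR1) by 0.65 (1.57-fold, adjusted p = 1.47e-04), from 4.58, 4.57 and 4.52 to 5.21, 5.11 and 5.31. In ShControl cells these probe sets lay at percentiles 16.1 and 27.2 of the array. Another Flt1 probe set was brighter than this one in ShControl cells (mean 4.77 against 4.56) and did not pass (0.12, adjusted p = 0.300). The counted Flt1 probe set was thus the brightest only through the ShSuz12 arrays. The dimmest Flt1 probe set rose by 0.46, and the other Kdr probe set did not pass (-0.07). Flt4 (VEGFR3), the receptor of Vegfc, had 0.08 (adjusted p = 0.355).

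**Figure D2:**
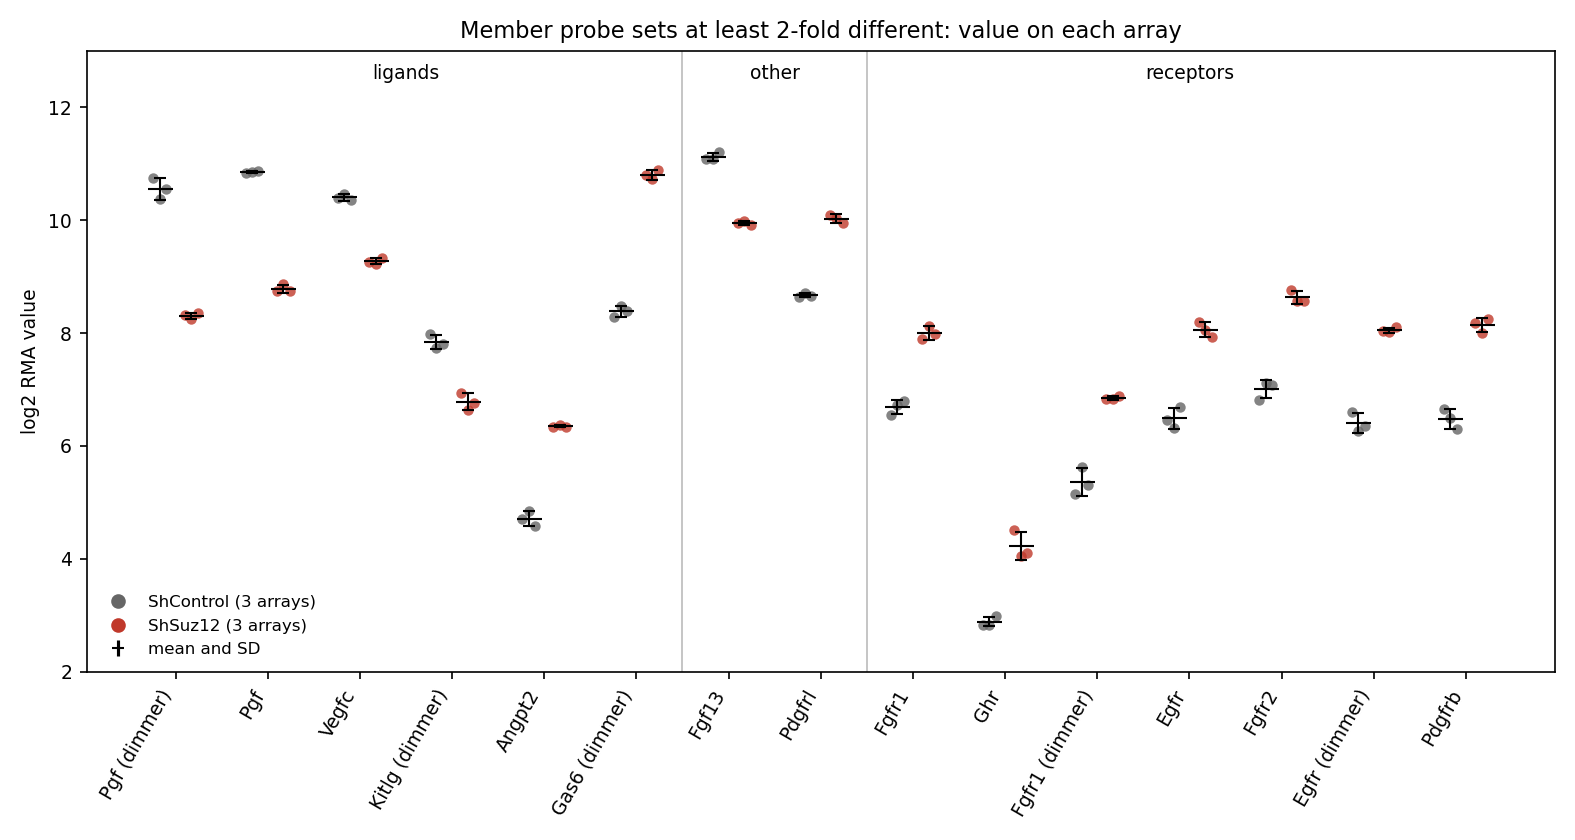
Log2 RMA value on each of the 6 arrays for the 15 probe sets of 12 genes called at least 2-fold different, grey for ShControl and red for ShSuz12, with the mean and SD of 3 arrays in black; "dimmer" marks a probe set that is not the brightest of its gene. No pair of groups overlaps, which follows largely from choosing these probe sets by their difference on the same arrays. Of all probe sets, 47.5% do not overlap. The difference of means is largest for the dimmer Gas6 probe set (2.42) and for Pgf (-2.25 and -2.07).

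Gas6 was the ligand whose size of rise depended most on the probe set. It encodes a vitamin K-dependent protein that binds the TAM receptors Axl, Mertk and Tyro3. At the brightest probe set the levels were 10.92, 11.001 and 10.85 in ShControl and 11.88, 11.93 and 11.94 in ShSuz12 cells, a rise of 0.995 (standard error 0.06, 1.99-fold, adjusted p = 7.97e-06), just short of 2-fold. A dimmer probe set went from 8.29, 8.47 and 8.39 to 10.80, 10.72 and 10.89, a rise of 2.42 (standard error 0.07, 5.36-fold, adjusted p = 1.68e-07) and the largest among the 99 probe sets, of which 10 were called higher and 5 lower (3.1% and 0.396% of all probe sets). The dimmest rose by 0.87. Gas6 thus rose at all 3 of its probe sets, by 1.82-fold to 5.36-fold, and crossed 2-fold at the brightest without ShControl replicate 2 (1.04) or ShSuz12 replicate 1 (1.01). The brightest lay at percentile 96.1 of the array in ShControl cells and 98.6 in ShSuz12 cells. Of its receptors, Axl had -0.03 (adjusted p = 0.741) at levels of 11.89 to 11.99, Tyro3 had 0.04 (adjusted p = 0.773), and Mertk rose by 0.27 (1.21-fold, adjusted p = 0.0162, but 0.0711 with array medians subtracted) at its brightest probe set and had -0.01 at the other.

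Angpt2, the angiopoietin that modulates signaling of Tek (TIE2), was the ligand called higher. Its levels were 4.71, 4.84 and 4.58 in ShControl and 6.35, 6.38 and 6.34 in ShSuz12 cells, a rise of 1.65 (standard error 0.07, 3.13-fold, adjusted p = 1.66e-06) from percentile 29.9 to 51.1 of the array. Angpt1, the activating ligand, had 0.00 (adjusted p = 0.985), and Angpt4 rose by 0.27 (adjusted p = 0.0255, but 0.0854 with array medians subtracted). Neither Tek (0.19, adjusted p = 0.0724) nor Tie1 (-0.06, adjusted p = 0.739) passed, and both were dim.

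Kitlg (stem cell factor) fell and its receptor Kit rose slightly. Kitlg had levels of 8.97, 9.03 and 8.94 in ShControl and 8.25, 8.27 and 8.29 in ShSuz12 cells at its brightest probe set, and it fell by 0.71 (1.64-fold, adjusted p = 2.77e-05). A dimmer one was called, and fell by 1.06 (standard error 0.09, 2.08-fold, adjusted p = 7.91e-05) from 7.98, 7.74 and 7.80 to 6.94, 6.64 and 6.76. Another fell by 0.73 with overlapping arrays, since ShControl replicate 2 (5.65) lay below the others (6.48 and 6.64), and the dimmest had -0.31 (adjusted p = 0.199). Kit rose by 0.35 (adjusted p = 0.00235) from 4.59, 4.55 and 4.61 to 4.96, 4.99 and 4.85. Csf1, the macrophage growth factor, rose by 0.28 (1.21-fold, adjusted p = 0.0492) at the brightest of its probe sets, and a dimmer one rose by 0.26. Its remaining probe sets did not pass (0.18 and 0.12, adjusted p = 0.151 and 0.162). The brightest did not pass in 8 of 15 other fits (adjusted p = 0.0621 to 0.155), the one with a replicate block among them.

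Hgf, hepatocyte growth factor, had -0.17 (adjusted p = 0.155) at levels of 3.97 to 4.36, and its receptor Met had 0.23 (adjusted p = 0.104) at 6.95 to 7.45. Ghr, the growth hormone receptor, which signals through Jak2 and has no kinase domain, was called higher: 2.84, 2.84 and 2.98 in ShControl and 4.51, 4.05 and 4.11 in ShSuz12 cells (1.34, standard error 0.12, adjusted p = 7.56e-05). Its ShControl levels were near the floor of the array (percentile 0.0419), so the size of this change is uncertain. The other Ghr probe set was brighter in ShControl cells (mean 3.14 against 2.89) and rose by 0.47 (1.38-fold). The called one was thus the brightest only through the ShSuz12 arrays. The collagen receptors Ddr1 and Ddr2, the insulin receptor Insr and the GDNF receptor Ret did not pass at their brightest probe sets, with 0.15, 0.14, 0.23 and -0.13. A dimmer Ret probe set rose by 0.24 from near the floor (adjusted p = 0.0135).

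In 22 of the 57 genes more than 1 probe set was measured, and in 0 of them did probe sets pass the adjusted p in opposite directions. The size of the change differed between probe sets of a gene, as the plot of probe sets by gene shows. When all probe sets of a gene were averaged, 3 receptors went under 2-fold: Fgfr2 (0.61), Pdgfrb (0.88) and Ghr (0.90). Egfr went down to 1.03 and stayed called, and Gas6 became called at 1.43.

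**Figure D3:**
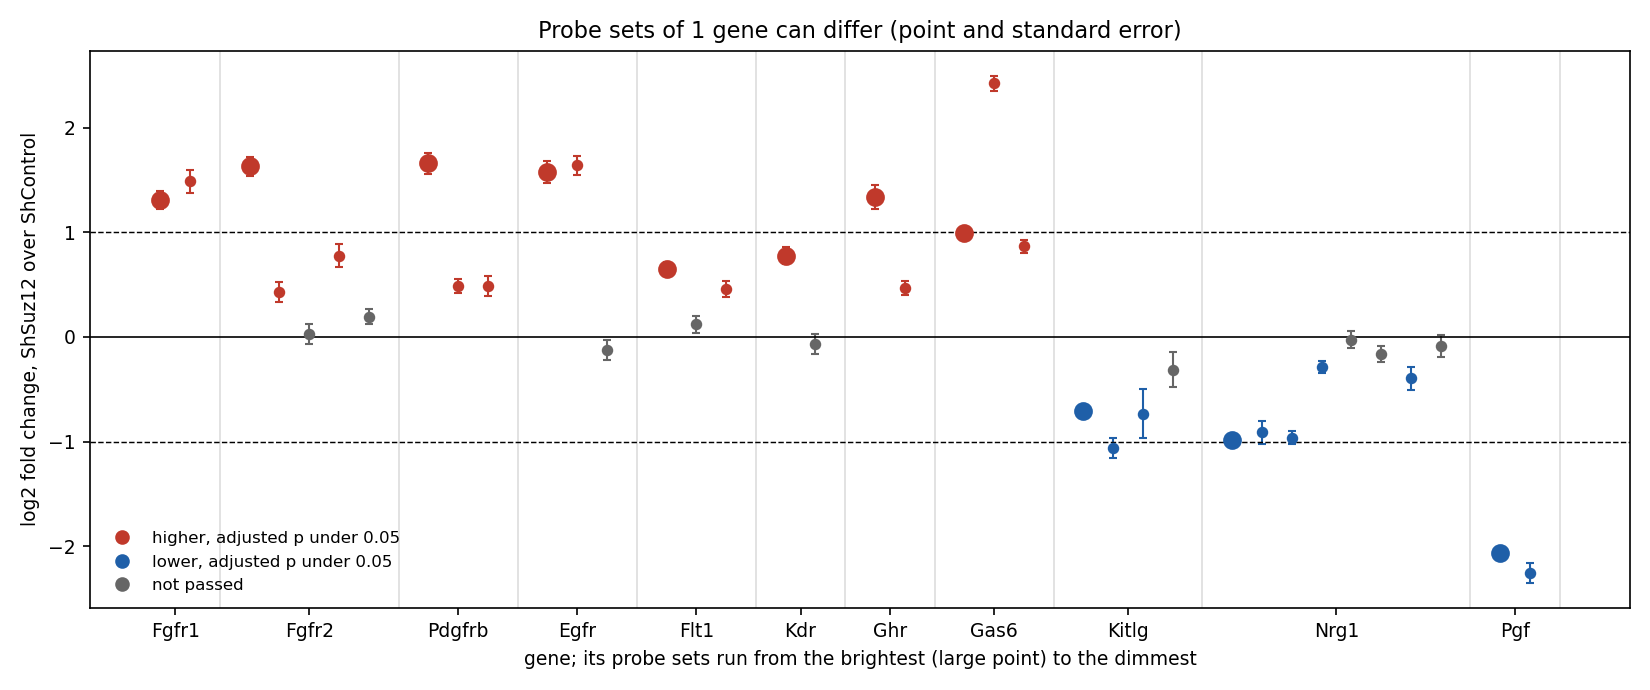
Log2 fold change (ShSuz12 over ShControl) with its standard error for each probe set of 11 genes, ordered within a gene from the brightest (large point) to the dimmest; red and blue passed an adjusted p under 0.05, grey did not, and dashed lines mark 2-fold. Coloured points of 1 gene all lie on the same side of 0, while their sizes differ, from 0.87 to 2.42 for Gas6.

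Genes that act with these receptors were taken from 4 lists: coreceptors and ligand processing, adaptors and proximal effectors, feedback inhibitors and transcriptional targets. The list of coreceptors and ligand processing held the most called genes of these 4 lists. Of its 28 genes, 5 were at least 2-fold higher and 1 lower, against 3.82% and 0.422% of all genes. Without the fold limit, 10 of them rose and 4 fell. Nrp2, a neuropilin that presents Vegfc and other ligands to VEGF receptors, rose by 2.98 (standard error 0.05, 7.90-fold, adjusted p = 1.92e-08), from 7.45 ± 0.05 in ShControl to 10.43 ± 0.04 in ShSuz12 cells (SD over 3 arrays each). The glypicans Gpc3, Gpc1 and Gpc4, cell surface heparan sulfate proteoglycans that bind FGFs, rose by 2.79, 2.54 and 1.53. Gpc6, of the same family, fell by 1.05 and Nrp1 rose by 1.20. Dimmer probe sets of Nrp2 and Gpc3 had 0.69 (adjusted p = 0.00560) and 0.19 (adjusted p = 0.0837), and those of Gpc6 fell by 0.48 to 1.37. The sheddase Adam17, which releases several EGF family ligands, rose by 0.91 and stayed under 2-fold.

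Of the genes downstream of the receptors, Grb10 and Grb14 were called. Among 28 adaptors and proximal effectors, 0 were 2-fold higher by limma (3 rose by less, 4 were higher at an unadjusted p under 0.05, by limma or by the t-test). Of the same list 6 fell, 2 of them by 2-fold: Grb10 by 1.16 and Grb14 by 1.15, adaptors that bind and restrain the insulin receptor and others. The other 4 were Sos2 (-0.49), Gab1 (-0.44), Nck2 (-0.34) and Nras (-0.21). Of 16 feedback inhibitors, 3 rose and 2 fell, 0 by 2-fold also without adjustment (limma, with 3 and 3 at an unadjusted p under 0.05 and 3 and 2 by the t-test). Cblb, a ubiquitin ligase that takes receptors down, rose by 0.98, and Spry2, an inhibitor of Ras signaling, fell by 0.74. Cbl did not pass at its brightest probe set (0.15, adjusted p = 0.147). Dimmer Cbl probe sets rose by 0.33 and 0.56 (adjusted p = 0.00746 and 0.0472), and another had -0.08. Lrig3 rose by 0.71, while its dimmer probe set had -0.10 (adjusted p = 0.196). Of 17 transcriptional targets, 7 rose and 5 fell, again 0 by 2-fold (limma, 7 and 6 unadjusted, and 7 and 5 by the t-test). Ccnd1 did not pass at its brightest probe set (-0.16, adjusted p = 0.194). Its other probe sets fell by 0.50 and 0.43 (adjusted p = 0.00156 and 0.00185). Fos and Egr2 rose by 0.79 each at their brightest probe sets, while their dimmer ones had 0.00 and -0.04 (adjusted p = 0.969 and 0.764). Myc fell by 0.84, and of the ETS factors Etv1 rose by 0.74 while Etv5 fell by 0.64 and Etv4 by 0.54. Their other probe sets showed less: 0.05 to 0.23 for Etv1, -0.12 for Etv5 and -0.29 for Etv4 (adjusted p = 0.133 and 0.147). Of the other Etv1 probe sets only that with 0.23 passed (adjusted p = 0.0309). It was brighter in ShControl cells than the counted one (percentiles 21.9 and 17.6). Beside these counts, 17.1% of all genes rose and 23.3% fell, and 3.82% were called higher and 0.422% lower. The list medians ran from -0.02 to 0.03, against -0.05 for all genes.

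**Figure D4:**
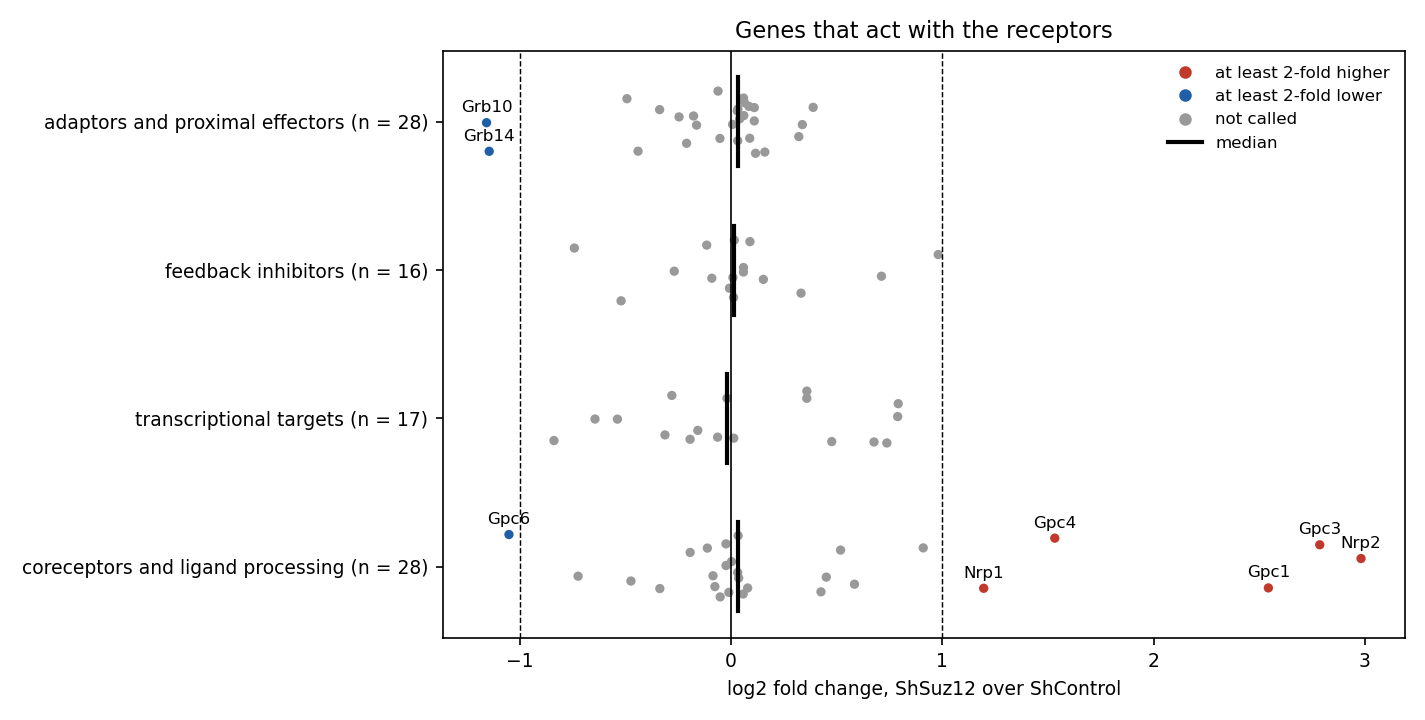
Fold changes on the log2 scale, ShSuz12 over ShControl, for the measured genes of 4 lists; each point is a gene at its brightest probe set, spread vertically for display, with the list median in black and 2-fold dashed. Points beyond 2-fold are named: 5 coreceptors on the higher side, reaching 2.98 (Nrp2), and Gpc6, Grb10 and Grb14 on the lower side.

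Several of the receptors that rose are typical of mesenchymal or endothelial cells, so markers of such cells were measured beside them. Among all genes, 3.82% were called higher and 0.422% lower, while 17.1% rose and 23.3% fell. Of 10 fibroblast markers, 4 were at least 2-fold higher (Col1a2, Col3a1, Dcn and Lum) and 0 lower by limma (0 at an unadjusted p under 0.05, and 1 by the t-test). S100a4 rose by 0.99, while Vim, Fap, Pdpn, Thy1 and Col1a1 did not pass (-0.06, -0.07, 0.11, 0.16 and 0.25). Summed over the list, linear signal was 32031 to 34593 on ShControl arrays and 48678 to 50357 on ShSuz12 arrays. Such a sum is weighted to the brightest probe sets of a list. Col3a1, which rose by 2.33, added the most to its rise. Of 10 smooth muscle and pericyte markers, 1 was at least 2-fold higher (Mcam, 1.52), 3 rose and 2 fell, with a list median of -0.0049 and sums of 4051 to 4246 and 3415 to 3561. Most of that sum was Tagln, which fell by 0.35. Endothelial markers numbered 6, with 1 higher (Erg, 1.34), a sum of 148 to 160 against 182 to 201, and Pecam1 at percentiles 6.85 and 5.63 of the array. Leukocyte markers were not called (0 of 9 by limma, with 2 higher and 4 lower at an unadjusted p under 0.05 and 2 and 2 by the t-test), with sums of 1402 to 1435 and 1193 to 1271. In bulk RNA, more cells of a type and more RNA per cell cannot be told apart, and the part of these markers in the receptor results was not tested. Of 15 intestinal epithelial markers, 2 were called higher (Cdx2 and Krt19), 3 rose and 2 fell, with a list median of 0.0045. Their sums were 11391 to 12227 and 9437 to 9755, and the largest part of the ShControl sum was Cdh1. Cdh1 was at percentile 99.3 of the array in ShControl cells and fell by 0.76. Krt8 was at 90.2 and fell by 0.41, and Tjp1 was at 98.6 and rose by 0.17. Epcam, Krt18 and Cldn4 were at 5.75, 8.04 and 8.95 and did not pass. Probes differ in brightness, so these percentiles do not order the markers by expression.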

How the data were processed

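RNA of 3 ShControl and 3 ShSuz12 samples was hybridised to Affymetrix RAE230 2.0 rat expression arrays, and the authors deposited 1 log2 value per probe set and array, made by robust multi-array average (RMA) in FlexArray 1.6.1 with background correction and normalization. Such values understate changes of dim probe sets. From them, limma 3.58.1 (R 4.3.3) was fitted to 31042 probe sets, leaving out 57 control probe sets, with a two-sided moderated test and Benjamini-Hochberg adjustment. Probe sets were named through the platform annotation: 20826 had 1 gene symbol, 436 had several and 9780 were not listed. Every one of the 99 probe sets described was matched to RefSeq by Entrez ID. A gene was represented by its probe set with the highest mean over 6 arrays. All genes of the chosen set are named, with array values for those called and for most others that passed the adjusted p. The genes and lists were chosen with earlier results of these data known. Alternatives are given in the closing section. Script steps were tested on simulated data. Proteins and probe sequences were not analysed here.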

Additional observations from a re-analysis of the deposited data

How the results depend on the processing

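Over 19 settings, 0 of the genes that passed the adjusted p changed direction. Settings that changed only the test, the threshold or which probe sets were kept left fold changes as they were, so direction could not change there. It could change with array medians subtracted, a second quantile normalization, the mean of all probe sets or 1 array left out. The calls of Pgf, Vegfc, Fgf13, Fgfr1 and Egfr held outside the percentile filters, which Fgfr1 and Egfr passed at the 60th through the ShSuz12 arrays. Of genes that rose by under 2-fold, 4 missed the adjusted p in some of 15 other fits: Csf1 in 8, Angpt4 and Mertk in 7 each and Tgfa in 4. Ligands that rose numbered 4 and ligands that fell 12 with array medians subtracted, and the adjusted t-test gave 5 ligands and 9 receptors that rose. Ligands called higher numbered 0 above the 60th percentile, where Angpt2 was not tested, and 2 after a second quantile normalization, with the mean of all probe sets or when any probe set of a gene counted (chosen after seeing the data), each time with Gas6. Receptors called higher numbered 2 with the mean of all probe sets. Without a fold limit, 18 genes were higher and 7 lower (ligands 7 and 6, receptors 10 higher), and at 1.5-fold 11 and 7 (ligands 3 and 6). Leaving out 1 array at a time gave 7 to 8 genes higher and 3 to 4 lower, with 1 to 2 ligands higher, 2 to 3 ligands lower, 5 receptors higher and 0 lower. The added ligands were Gas6 (without ShControl replicate 2 or ShSuz12 replicate 1), Pdgfc (without ShControl replicate 1) and Nrg1 (without ShControl replicate 3 or ShSuz12 replicate 2). Subtracting array medians moved the median of all probe sets by 0.10 and gave 7 higher and 4 lower. With the replicate number as a block 7 were higher and 3 lower, and no 2-fold call changed, while Csf1 no longer passed (adjusted p = 0.0621). Same-numbered samples did not deviate together (correlations 0.02, -0.04 and -0.06), so the numbers are not taken as pairs. Signal near the bottom of the array limits Ghr, Kdr and Flt1. Kit, Angpt2, Angpt4 and Mertk were also dim in ShControl cells (percentiles 27.6, 29.9, 31.9 and 33.4).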
